A study of Mus musculus with 18 samples.

Results

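Interferon gamma (Ifng), its receptor chains Ifngr1 and Ifngr2, the kinases Jak2 and Tyk2 and the transcription factors Stat2, Stat3 and Stat4 were followed across B16F10 tumors treated with a STING agonist. These 8 genes were given as a list, and their rows were taken from the 50600 gene rows of the expected count table. All 8 were among the 16927 genes that passed the filter on low counts. They were described by role, as ligand, receptor chain, kinase or STAT.

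B16F10 is a mouse melanoma line, here grown under the skin of C57BL/6 mice without any genetic change to the host. Tumors were injected with PBS, unloaded extracellular vesicles (EVs), the free cyclic dinucleotide CDN2 at 20 µg or 100 µg, or exoCDN2, which is CDN2 loaded on EVs, at 0.1 µg. All of these were given as 1 dose, and PBS, CDN2 at 20 µg and exoCDN2 were also given as 2 doses 3 days apart. Each of the 8 groups held 2 tumors, collected 24 h after the last dose. CDN2 is called CL656 in the sample titles, and the 100 µg group is known from those titles alone. A further 2 tumors given 2 doses of CL656 had no amount in their labels and entered no comparison. Free CDN2 and exoCDN2 were not given at matched amounts, so a difference between them is a difference between these doses as well as between the forms.

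Interferon gamma is made mainly by activated NK cells and T cells. It binds a receptor built from Ifngr1, the ligand-binding chain, and Ifngr2, which brings in Jak2; Jak1 sits on Ifngr1, and the pair of kinases starts the signal. The other members belong to neighbouring pathways that share these parts. Tyk2 serves the type I interferon receptor, where Stat2 joins Irf9 in the ISGF3 complex, and it works with Jak2 at the IL-12 receptor, where Stat4 is activated and drives Ifng transcription. Stat3 carries signals of the IL-6 and IL-10 families. The receptor chains and most of the kinases are made by nearly all cells, whereas Ifng and Stat4 are largely lymphocyte genes.

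Totals per tumor lay between 21608895 and 65983630 expected counts. The melanoma genes Pmel, Dct, Tyrp1, Mlana, Tyr, Sox10 and Mitf together gave 7515 to 24093 CPM (counts scaled to library size with TMM factors) in the 16 tumors, and were lowest after 2 doses of CDN2. The pair of tumors given 2 doses of CDN2 was the least alike of all pairs, with 27.1% of genes differing more than 2-fold between them, against 3.85% to 10.6% in the other groups. Skeletal muscle genes reached 1665 and 3415 CPM in that pair and stayed at or below 440.2 CPM in the other labelled tumors. Keratinocyte genes lay at 62.4 and 115.6 CPM in PBS tumors after 1 dose but at 0.0442 and 0.433 CPM in PBS tumors after 2 doses. The part of these differences in the results below was not tested. In whole tumors, fewer cells of a type cannot be told apart from less RNA per cell.

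The upstream sequences of 4 members are shown. Those of Ifng, Stat2 and the second Stat4 start held a motif match, and that of Ifngr1, called in no comparison, held none. Jak2 was called in 3 direct comparisons, as often as Ifng and Stat4, and its window held no match. The sequences shown were thus not chosen by response alone, and no link between motifs and changes was tested. Each is the run of 250 bases before the RefSeq transcription start (GRCm38.p6), written 5′ to 3′ on the gene's strand. Capitals mark matches, on either strand, to GAAANNGAA, the core of the interferon-stimulated response element bound by ISGF3, or to TTCNNNGAA, the gamma-activated site bound by STAT dimers. The Ifng run lies at chr10:118440796-118441045, that of Stat2 at chr10:128270248-128270497, that of the second Stat4 start at chr1:52007990-52008239 and that of Ifngr1 at chr10:19591699-19591948, all on the plus strand.
Ifng: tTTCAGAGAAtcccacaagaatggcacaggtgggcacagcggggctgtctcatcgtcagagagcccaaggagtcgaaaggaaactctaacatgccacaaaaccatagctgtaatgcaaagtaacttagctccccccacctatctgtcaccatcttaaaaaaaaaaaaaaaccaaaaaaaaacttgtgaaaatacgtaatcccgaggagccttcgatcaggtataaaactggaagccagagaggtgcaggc
Stat2: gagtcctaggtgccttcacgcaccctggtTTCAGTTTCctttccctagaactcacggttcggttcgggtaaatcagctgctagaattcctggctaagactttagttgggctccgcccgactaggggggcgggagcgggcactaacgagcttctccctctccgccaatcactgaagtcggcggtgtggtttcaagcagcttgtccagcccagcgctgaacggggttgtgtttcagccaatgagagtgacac
Stat4, second start: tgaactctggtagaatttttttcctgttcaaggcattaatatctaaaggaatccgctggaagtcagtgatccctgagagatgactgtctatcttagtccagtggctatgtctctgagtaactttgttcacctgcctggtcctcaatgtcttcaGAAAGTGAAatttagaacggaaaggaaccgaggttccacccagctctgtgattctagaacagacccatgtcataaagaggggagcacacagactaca
Ifngr1: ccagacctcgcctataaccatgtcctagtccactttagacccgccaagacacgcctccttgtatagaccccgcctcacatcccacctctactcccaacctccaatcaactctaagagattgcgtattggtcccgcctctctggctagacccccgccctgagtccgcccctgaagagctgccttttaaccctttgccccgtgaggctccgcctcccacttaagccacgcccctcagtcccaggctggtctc

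In these runs a gamma-activated site (TTCAGAGAA) began 249 bases before the Ifng start. A response element core stood on the minus strand 221 bases before the Stat2 start, where the plus strand reads TTCAGTTTC. Another core (GAAAGTGAA) began 97 bases before the second Stat4 start. No match to either motif was found in the windows of Ifngr1, Ifngr2, Jak2, Tyk2, Stat3 or the first Stat4 start. Each window searched ran from 250 bases before to 50 bases after the start, so it was longer than the runs shown. Over all 32851 such windows, 8.56% held the response element core and 8.30% the gamma-activated site. No 2 matches overlapped in the member windows. A match of letters shows no binding.

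Levels differed widely between the members. Per kilobase of exon, Stat3 was the most abundant, with a median of 24.8 CPM per kb over the 16 tumors, followed by Ifngr2 at 17.5, Stat2 at 17.0, Jak2 at 12.9, Ifngr1 at 9.24 and Tyk2 at 5.72. Ifng and Stat4 were scarce, with medians of 1.25 and 0.289 CPM per kb. When the longest transcript was used as the length, Stat2 and Ifngr2 exchanged places and the rest of the order stayed. Between the lowest and the highest of these 16 tumors, the level of Ifngr2 varied 1.53-fold, Tyk2 1.99-fold and Ifngr1 2.21-fold, whereas Stat3 varied 3.38-fold, Jak2 4.81-fold, Stat4 12.9-fold and Stat2 14.4-fold.

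To be called, a gene needed both a ratio over 2 and an adjusted p under 0.05, from edgeR with Benjamini-Hochberg adjustment over all 16927 genes. With 2 tumors in a group, and no label that says more of their origin, the p-values measure the spread between these tumors alone. Over the 11 direct comparisons of 2 groups, Stat2 was called in 7, Ifng, Jak2 and Stat4 in 3 each, and Stat3 in 2. Ifngr1, Ifngr2 and Tyk2 were called in none. The comparisons at a given dose number share their PBS tumors, so they are not independent of each other.

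**Figure D1:**
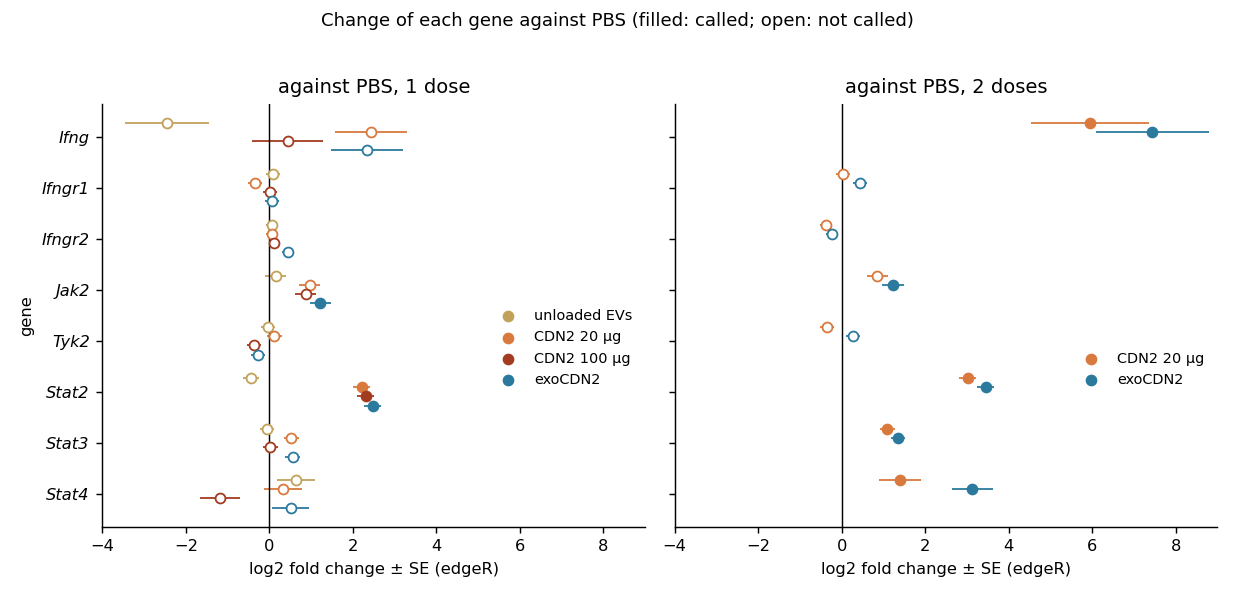
Log2 fold change against PBS (x axis, ± SE from edgeR) of the 8 genes (y axis) after 1 dose (left) and 2 doses (right), with filled points for called genes and open points for the others. Stat2 is filled for all agonist treatments, while both receptor chains and Tyk2 have no filled point; the Ifng points after 2 doses are measured against tumors at the limit of detection.

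Ifng, the ligand, was present at 0.949 and 1.56 CPM in PBS tumors after 1 dose. Tumors given unloaded EVs held 0.131 and 0.328 CPM, tumors given exoCDN2 4.54 and 8.18 CPM, and tumors given CDN2 at 100 µg 0.616 and 2.80 CPM. At 20 µg of CDN2 the tumors were far apart, at 1.68 and 11.9 CPM. Both exoCDN2 tumors lay above both PBS tumors and both EV tumors, whereas the 100 µg tumors straddled the PBS tumors.

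After 2 doses Ifng was close to absent in the PBS controls. The PBS tumors held 2 and 0 expected counts, against 43 and 78 in the PBS tumors after 1 dose. Tumors given 2 doses of CDN2 held 1.02 and 1.88 CPM (18 and 70 counts), and those given 2 doses of exoCDN2 held 5.15 and 3.21 CPM (262 and 226 counts). Set against a floor of 3 counts in each PBS tumor, which is 0.0641 CPM, mean Ifng was 22.6 times the floor after 2 doses of CDN2. It was 65.3 times the floor after 2 doses of exoCDN2 and 19.6 times in PBS tumors after 1 dose. These ratios leave out the spread between tumors. The 95% intervals of the log2 fold change against PBS after 2 doses were 2.88 to 9.02 for CDN2 and 4.49 to 10.4 for exoCDN2. For 2 doses against 1 dose of PBS the interval was −8.76 to −2.65.

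By test, Ifng was called higher in exoCDN2 than in EV tumors after 1 dose (log2 fold change 4.80 ± 1.02 SE, adjusted p = 0.0220 by edgeR), and higher than PBS after 2 doses of CDN2 (adjusted p = 0.00470) and of exoCDN2 (adjusted p = 0.00286). The first call was lost without EV tumor 1 (adjusted p = 0.157), without EV tumor 2 (0.130) and without exoCDN2 tumor 2 (0.110). Both calls against PBS after 2 doses were lost when the PBS tumors of both dose numbers were joined as 1 control, with adjusted p-values of 0.392 for CDN2 and 0.108 for exoCDN2. Against PBS after 1 dose, the log2 fold changes of 2.43 ± 0.86 for CDN2 at 20 µg and 2.34 ± 0.86 for exoCDN2 did not pass, at adjusted p-values of 0.171 and 0.195. The former passed at 0.0420 without CDN2 tumor 1, the lower of the pair. The latter passed with the groups compared fitted alone (0.00233), and both passed when no filter on low counts was set (2.46e-08 and 8.14e-08). Without the filter the log2 fold change for CDN2 at 20 µg was still 2.43, but its SE was 0.39 in place of 0.86. That fit also called 227 genes for EVs against PBS, where the fit with the filter called 0. Ifng was lower in EV than in PBS tumors without overlap, yet its log2 fold change of −2.46 ± 1.01 had an adjusted p of 1 and passed only without that filter (1.28e-05).

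Between free and loaded agonist Ifng was not called. The difference of exoCDN2 from CDN2 at 20 µg was −0.10 on the log2 scale after 1 dose, with a 95% interval from −1.85 to 1.65, and without the high CDN2 tumor 2 it was 1.92 (adjusted p = 0.383). After 2 doses it was 1.49, with an interval from −0.39 to 3.36 and an adjusted p of 0.186; both exoCDN2 tumors then lay above both CDN2 tumors, and without a filter on low counts the difference passed (1.54, adjusted p = 0.000522). The log2 fold change between 2 doses and 1 dose of PBS was −5.71 ± 1.40, with an adjusted p of 0.0911. It passed by DESeq2 (0.000719), with the groups compared fitted alone (0.0349), with the replicate number as a block (0.0443) and without a filter (2.23e-17). As PBS tumors after 2 doses were at the floor, the size of this fitted value depends on the prior count.

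**Figure D2:**
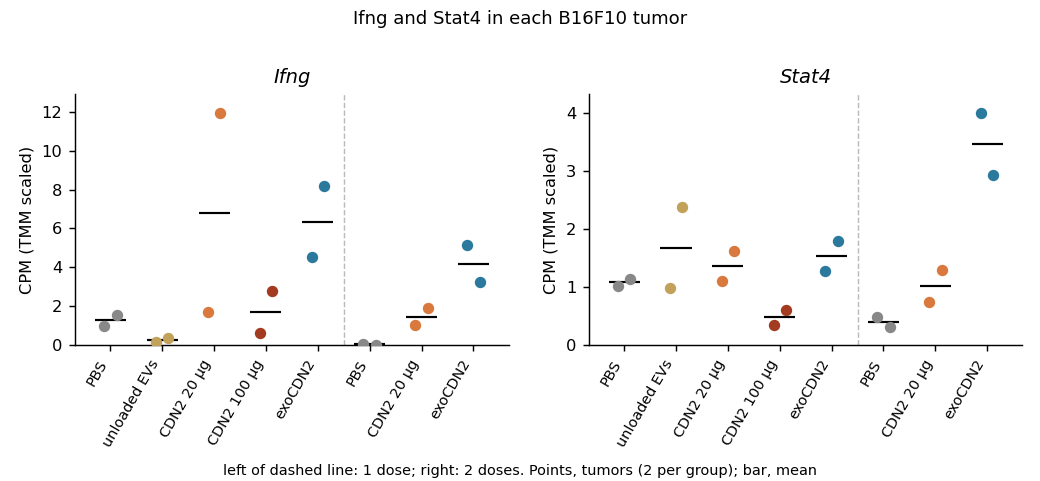
CPM of Ifng (left) and Stat4 (right) in each tumor (y axis) by treatment (x axis), with 1 dose left and 2 doses right of the dashed line; points are tumors and bars are means of 2. Ifng is near 0 in PBS tumors after 2 doses and spreads from 1.68 to 11.9 CPM between the CDN2 20 µg tumors after 1 dose, and Stat4 is highest in both tumors given 2 doses of exoCDN2.

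Marker genes of the cells that make interferon gamma were summed in each tumor. The sum of 10 T cell genes (Cd3e, Cd8a, Cd4 and others) was 14.6 and 18.2 CPM in PBS tumors and 10.8 and 14.4 CPM in exoCDN2 tumors after 1 dose. It was 6.65 and 6.68 CPM in PBS, 23.4 and 27.7 CPM in CDN2 and 51.8 and 66.1 CPM in exoCDN2 tumors after 2 doses. The sum of 8 NK cell genes (Ncr1, Klre1, Eomes and others) was 2.58 and 3.80 CPM in PBS and 4.92 and 5.20 CPM in exoCDN2 tumors after 1 dose. After 2 doses it was 1.83 and 2.50 CPM in PBS, 31.4 and 80.9 CPM in CDN2 and 55.6 and 103.5 CPM in exoCDN2 tumors. Between 2 doses and 1 dose of exoCDN2 the direct log2 difference in Ifng was −0.60 (adjusted p = 0.681), while both marker sums were higher after 2 doses without overlap. Single genes made up most of some sums. Gzma, a granzyme that T cells also make, held 27.7 and 68.0 CPM in CDN2 and 75.8 and 38.1 CPM in exoCDN2 tumors after 2 doses, with overlap, whereas the NK receptor Ncr1 held 0.0569 and 1.07 CPM in CDN2 and 2.07 and 2.01 CPM in exoCDN2 tumors. Lck, a kinase of T cells, held 7.64 and 9.11 CPM of the T cell sum in exoCDN2 tumors after 1 dose, against 5.01 and 6.20 CPM in PBS tumors. The median log2 fold change of the 10 T cell genes was −1.37 in that comparison, and Cd8a was at 0.180 and 0.929 CPM against 2.43 and 2.68 CPM (adjusted p = 0.172). The part of cell numbers in the Ifng levels was not tested.

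**Figure D3:**
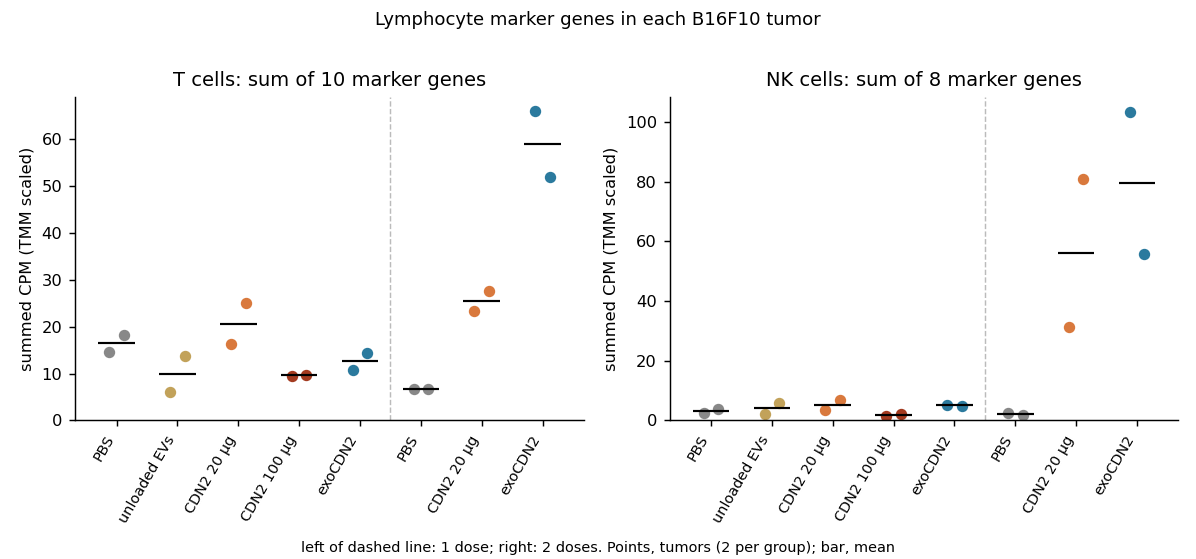
Summed CPM of 10 T cell genes (left) and 8 NK cell genes (right) in each tumor (y axis) by treatment (x axis), with 1 dose left and 2 doses right of the dashed line; points are tumors and bars are means of 2. The T cell sum is highest in both tumors given 2 doses of exoCDN2, the NK cell sums of that group (55.6 and 103.5 CPM) overlap those after 2 doses of CDN2 (31.4 and 80.9 CPM), and NK cell genes stay at or below 6.68 CPM in all tumors after 1 dose.

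Ifngr1, which binds the ligand, kept a narrow range. It held 24.1 and 26.8 CPM in PBS, 27.2 and 27.2 CPM in EV, 21.4 and 18.9 CPM in CDN2 20 µg, 25.8 and 25.8 CPM in CDN2 100 µg and 25.8 and 26.97 CPM in exoCDN2 tumors after 1 dose. After 2 doses it held 25.8 and 29.1 CPM in PBS, 23.7 and 32.2 CPM in CDN2 and 41.8 and 32.9 CPM in exoCDN2 tumors. The latter pair was above every other tumor, yet its log2 fold change against PBS was 0.44 ± 0.17 and missed the threshold (adjusted p = 0.0920). Its 95% interval, 0.08 to 0.81, did not reach a ratio of 2.

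Ifngr2, the signalling chain that carries Jak2, was the more abundant chain. PBS tumors held 63.2 and 66.8 CPM after 1 dose and 73.5 and 80.4 CPM after 2 doses. The exoCDN2 tumors held 87.3 and 88.9 CPM after 1 dose, the highest values of all, and 65.0 and 65.3 CPM after 2 doses, below both PBS tumors. CDN2 tumors held 73.8 and 60.8 CPM after 1 dose of 20 µg, 75.8 and 65.3 CPM after 100 µg, and 59.7 and 58.1 CPM after 2 doses. Against PBS the log2 fold change was 0.44 ± 0.13 after 1 dose of exoCDN2 (adjusted p = 0.105), −0.24 ± 0.13 after 2 doses of exoCDN2 (adjusted p = 0.241) and −0.39 ± 0.13 after 2 doses of CDN2. The latter had an adjusted p of 0.0292 but a ratio under 2, and was not called.

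Tyk2, the kinase of the type I interferon and IL-12 receptors, was also never called. Its level was 42.3 and 39.6 CPM in PBS, 38.6 and 41.3 CPM in EV, 47.8 and 41.3 CPM in CDN2 20 µg, 32.1 and 31.1 CPM in CDN2 100 µg and 32.5 and 35.6 CPM in exoCDN2 tumors after 1 dose. After 2 doses it was 38.6 and 46.7 CPM in PBS, 27.5 and 39.0 CPM in CDN2 and 54.7 and 48.9 CPM in exoCDN2 tumors. Tyk2 was lowest after 100 µg of CDN2 among the groups given 1 dose and highest after 2 doses of exoCDN2. Between exoCDN2 and CDN2 after 2 doses it differed by 0.64 ± 0.17 on the log2 scale, with an adjusted p of 0.0147 and a ratio under 2.

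Jak2, the kinase that Ifngr2 carries, was higher in every tumor of the 5 labelled agonist groups than in every PBS or EV tumor. It held 40.5 and 39.4 CPM in PBS, 45.9 and 42.7 CPM in EV, 71.9 and 84.3 CPM in CDN2 20 µg, 74.4 and 71.8 CPM in CDN2 100 µg and 88.6 and 97.1 CPM in exoCDN2 tumors after 1 dose. Following 2 doses it held 41.9 and 20.2 CPM in PBS, 62.0 and 50.01 CPM in CDN2 and 77.6 and 68.3 CPM in exoCDN2 tumors. The tumors given 2 doses of an unstated amount of CL656 were outside these groups, at 49.5 and 36.0 CPM, and the latter lay among the PBS tumors.

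Jak2 was called higher in exoCDN2 than in PBS tumors after 1 dose (2.33-fold, log2 fold change 1.22 ± 0.26, adjusted p = 0.0218), higher in exoCDN2 than in EV tumors (2.09-fold, adjusted p = 0.0416), and higher in exoCDN2 than in PBS tumors after 2 doses (2.35-fold, adjusted p = 0.00631). Against PBS after 1 dose the call was lost without either exoCDN2 tumor 1 (0.0920) or 2 (0.135) and without either PBS tumor 1 (0.183) or 2 (0.202). Against EVs it was likewise lost without EV tumor 1 (0.142) or 2 (0.289) and without exoCDN2 tumor 1 (0.145) or 2 (0.217). After 2 doses the call was lost without exoCDN2 tumor 1 (0.0584) and without PBS tumor 2, whose 20.2 CPM was the lowest value; the fold change was then under 2, at 0.80 on the log2 scale. It also missed the threshold when the groups compared were fitted alone (0.0607). With CDN2 at 20 µg, Jak2 had log2 fold changes against PBS of 0.97 ± 0.26 after 1 dose (adjusted p = 0.0589) and 0.85 ± 0.26 after 2 doses (adjusted p = 0.0163, ratio under 2). Without PBS tumor 1 the latter was 1.45 and passed. Between exoCDN2 and CDN2 the difference in Jak2 was 0.25 after 1 dose, with a 95% interval from −0.30 to 0.80, and 0.38 after 2 doses, with an interval from −0.17 to 0.94.

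**Figure D4:**
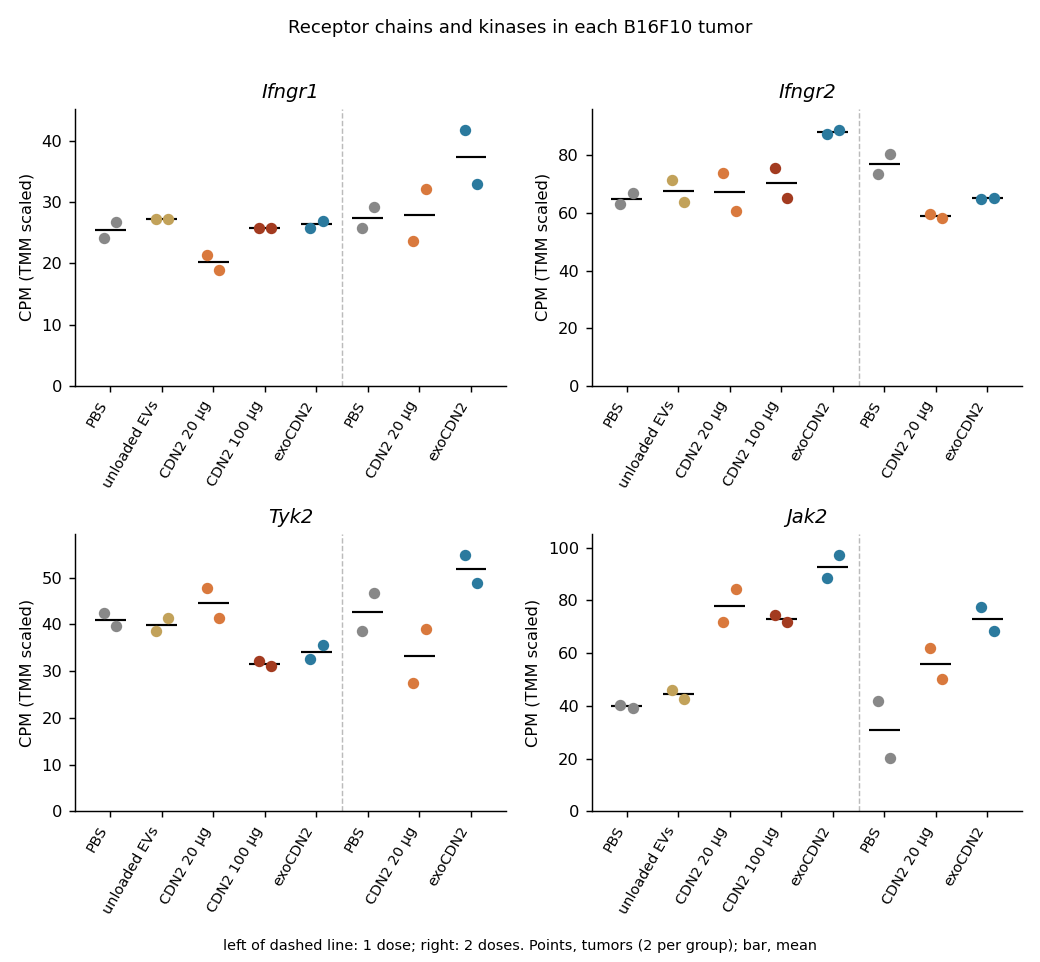
CPM of Ifngr1, Ifngr2, Tyk2 and Jak2 in each tumor (y axis) by treatment (x axis), with 1 dose left and 2 doses right of the dashed line; points are tumors and bars are means of 2. All plotted agonist-treated tumors, those of the 5 labelled groups, lie above the PBS and EV tumors for Jak2, and none of the other genes plotted shows such a split.

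Stat2, the STAT specific to interferon signalling through ISGF3, gave the clearest response. It held 31.2 and 29.5 CPM in PBS and 23.5 and 21.4 CPM in EV tumors, against 140.5 and 140.4 CPM in CDN2 20 µg, 159 and 141 CPM in CDN2 100 µg and 168 and 168 CPM in exoCDN2 tumors after 1 dose. With 2 doses, levels were 11.7 and 11.6 CPM in PBS, 84.5 and 104.6 CPM in CDN2 and 157 and 97.1 CPM in exoCDN2 tumors. No tumor of the 5 labelled agonist groups overlapped a PBS or EV tumor, whereas the tumors given an unstated amount of CL656, at 29.7 and 20.6 CPM, lay within the range of these controls.

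Against PBS, Stat2 rose 4.63-fold with CDN2 at 20 µg (adjusted p = 8.51e-05), 4.95-fold with CDN2 at 100 µg (5.87e-05) and 5.54-fold with exoCDN2 (4.02e-05) after 1 dose. It rose 8.10-fold with CDN2 (2.86e-06) and 10.9-fold with exoCDN2 (1.64e-06) after 2 doses, and was 7.47-fold higher in exoCDN2 than in EV tumors (9.24e-06). These 6 calls held under every alternative tried. The treated levels themselves were not higher after 2 doses: the direct difference between 2 doses and 1 dose was −0.57 on the log2 scale for CDN2 (adjusted p = 0.0356) and −0.40 for exoCDN2 (adjusted p = 0.192). Stat2 was lower in PBS tumors after 2 doses than after 1 (log2 fold change −1.38 ± 0.20, adjusted p = 0.00321), a call lost without PBS tumor 2 after 2 doses (0.0591). Between exoCDN2 and CDN2 at 20 µg, Stat2 differed by 0.26 (95% interval −0.15 to 0.67) after 1 dose and by 0.43 (0.01 to 0.84, adjusted p = 0.0953) after 2 doses. Between 100 and 20 µg of CDN2 the difference was 0.10 (−0.32 to 0.51).

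Stat3, the carrier of IL-6 family signals, held 218 and 196 CPM in PBS, 210 and 186 CPM in EV, 321 and 276 CPM in CDN2 20 µg, 204 and 217 CPM in CDN2 100 µg and 298 and 311 CPM in exoCDN2 tumors after 1 dose. After 2 doses it held 112 and 142 CPM in PBS, 287 and 255 CPM in CDN2 and 379 and 268 CPM in exoCDN2 tumors. Tumors given 100 µg overlapped the PBS tumors, while both other agonist groups lay above it. No comparison of Stat3 was called after 1 dose; the log2 fold changes against PBS were 0.53 ± 0.17 for CDN2 at 20 µg (adjusted p = 0.142), 0.56 ± 0.17 for exoCDN2 (0.124) and 0.02 ± 0.17 for CDN2 at 100 µg (0.976). The difference of 100 from 20 µg was −0.50 ± 0.17 (0.182).

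After 2 doses Stat3 was 2.14-fold higher than PBS with CDN2 (adjusted p = 0.000497) and 2.55-fold higher with exoCDN2 (0.000368). Both ratios fell under 2 when PBS tumors of both dose numbers were joined, at 0.70 and 0.95 on the log2 scale, with adjusted p-values of 0.0183 and 0.0112. For CDN2 the ratio also fell just under 2 without CDN2 tumor 1 (0.99) and without PBS tumor 1 (0.91). The difference between exoCDN2 and CDN2 after 2 doses was 0.25, with a 95% interval from −0.13 to 0.64. These ratios were measured from a lower control. In PBS tumors Stat3 differed by −0.70 ± 0.18 between 2 doses and 1 dose (adjusted p = 0.0949 by edgeR). For CDN2 at 20 µg the direct difference between 2 doses and 1 dose was −0.14. Mean Stat3 in exoCDN2 tumors was 304 CPM after 1 dose and 324 CPM after 2, with overlap.

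**Figure D5:**
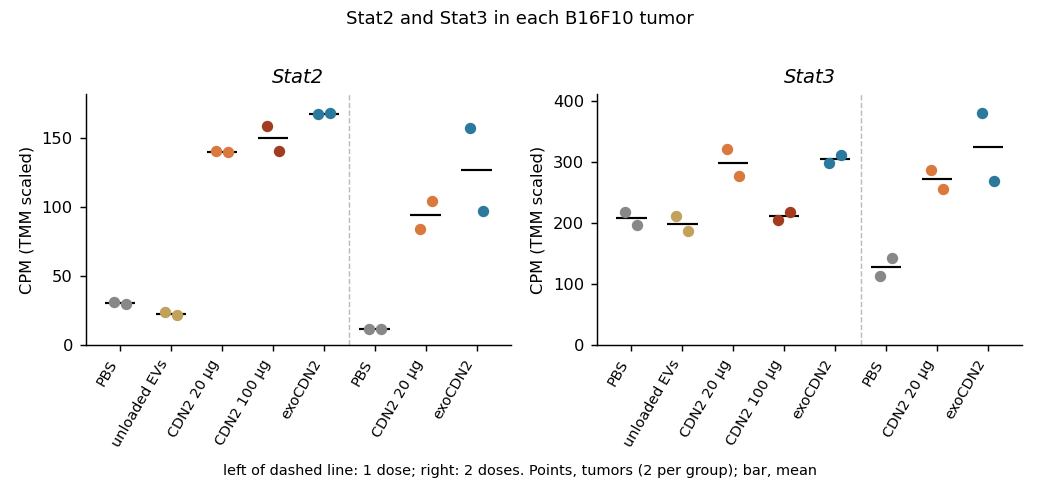
CPM of Stat2 (left) and Stat3 (right) in each tumor (y axis) by treatment (x axis), with 1 dose left and 2 doses right of the dashed line; points are tumors and bars are means of 2. Stat2 separates the plotted agonist-treated tumors, those of the 5 labelled groups (84.5 to 168 CPM) from PBS and EV tumors (11.6 to 31.2 CPM), and the PBS tumors are lower after 2 doses than after 1 for both genes.

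Stat4, which IL-12 activates in NK and T cells, was the 1 of the 8 members called between exoCDN2 and CDN2 after 2 doses, against 19.4% of all genes. It held 1.02 and 1.14 CPM in PBS, 0.982 and 2.37 CPM in EV, 1.10 and 1.62 CPM in CDN2 20 µg, 0.345 and 0.600 CPM in CDN2 100 µg and 1.28 and 1.79 CPM in exoCDN2 tumors after 1 dose. Following 2 doses it held 0.474 and 0.309 CPM in PBS, 0.739 and 1.29 CPM in CDN2 and 3.99 and 2.93 CPM in exoCDN2 tumors. The latter pair was above every other tumor, as the exoCDN2 tumors after 2 doses also were for Ifngr1 and Tyk2. For these genes the gap to the next tumor was small, 32.9 against 32.2 CPM for Ifngr1 and 48.9 against 47.8 CPM for Tyk2. The share of all genes with such a separation was not computed, nor was it for the splits seen in Jak2 and Stat2. In counts, Stat4 after 2 doses was at 23 and 14 in PBS, 13 and 48 in CDN2 and 203 and 206 in exoCDN2 tumors. The CDN2 tumor with 13 counts had the lowest total of the 16 tumors, 21608895.

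Stat4 rose 8.75-fold against PBS after 2 doses of exoCDN2 (log2 fold change 3.13 ± 0.49, adjusted p = 0.00119), and this call held under every alternative tried. It was 2.64-fold higher than PBS after 2 doses of CDN2 (adjusted p = 0.0361), which did not hold without CDN2 tumor 2 (0.276), PBS tumor 1 (0.0622) or PBS tumor 2 (0.172), with the groups fitted alone (0.171) or with all PBS tumors joined (0.444). Between exoCDN2 and CDN2 after 2 doses the ratio was 3.32 (log2 fold change 1.73 ± 0.47, adjusted p = 0.0154), and the call was lost without exoCDN2 tumor 1 (0.0698) or CDN2 tumor 1 (0.0961) and with these groups fitted alone (0.140). Of the 10 T cell genes 4 (Cd3e, Cd8a, Cd8b1 and Trac) were called higher in exoCDN2 than in CDN2 tumors after 2 doses by edgeR. Of the 8 NK cell genes 0 were, against 19.4% of all genes called in either direction. The summed T cell levels there were 51.8 and 66.1 CPM against 23.4 and 27.7 CPM. Ptprc, which marks all leukocytes, was at 77.0 and 112.6 CPM against 44.2 and 46.7 CPM. The part of lymphocyte number in the Stat4 levels was not tested.

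The number of members called in each comparison is given beside the share of all genes called in it. In the comparison of EVs with PBS none of the 8 members and 0% of all genes were called by edgeR, although 540 genes had an unadjusted p under 0.05 and DESeq2 called 35 genes. After 1 dose, 1 member was called for CDN2 at 20 µg against 3.14% of all genes, 1 for CDN2 at 100 µg against 2.44%, 2 for exoCDN2 against 2.62%, and 3 for exoCDN2 over EVs against 2.95%. Between exoCDN2 and CDN2 at 20 µg, and between 100 and 20 µg of CDN2, no member was called, against 0.608% and 0.455% of all genes.

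After 2 doses, 4 members were called for CDN2 against a background of 30.6% of all genes, 5 for exoCDN2 against 11.3%, and 1 for exoCDN2 over CDN2 against 19.4%. In PBS tumors, 1 member was called between 2 doses and 1 dose, against 1.10%. The count over all genes for exoCDN2 against CDN2 rested on individual tumors: over all genes it gave between 1023 and 6257 calls when 1 tumor was left out, against 3279 with all tumors. After 1 dose, leaving out 1 tumor lowered the calls over all genes from 444 to between 146 and 251 for exoCDN2 against PBS and from 413 to between 86 and 179 for CDN2 at 100 µg. The calls went from 103 to between 0 and 1 for exoCDN2 against CDN2 at 20 µg and from 77 to between 0 and 14 for 100 against 20 µg. All members called against PBS or EVs were higher in the treated tumors.

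The effect of 2 doses, each taken against its own PBS tumors, was compared with the effect of 1 dose. For exoCDN2 the 2 effects on Stat4 differed by 2.62 ± 0.66 on the log2 scale (adjusted p = 0.0321), against 6.82% of all genes called in this comparison. Stat2 also had a larger effect after 2 doses (0.98 ± 0.27, adjusted p = 0.0480) and Ifngr2 a lower one (−0.68 ± 0.19, adjusted p = 0.0449), both with a ratio under 2. For Ifng the difference was 5.10 ± 1.69 with an adjusted p of 0.0913, and it passed by DESeq2 (0.0103), with the groups compared fitted alone (0.0118), with the replicate block (0.0454) and without a filter on low counts (1.08e-09). This value too rests on PBS tumors at the floor, and the direct difference between the exoCDN2 groups was −0.60. For CDN2 at 20 µg no member was called, against 16.8% of all genes. The difference was 3.52 ± 1.78 for Ifng (adjusted p = 0.171) and 0.81 ± 0.27 for Stat2 (adjusted p = 0.0518). The direct differences between 2 doses and 1 dose of CDN2 had the other sign, at −2.19 for Ifng and −0.57 for Stat2. Here too the Ifng value rests on PBS tumors at the floor. The Stat4 call was lost without any 1 of 7 of the 8 tumors involved, with adjusted p-values from 0.0520 to 0.148, and stayed without exoCDN2 tumor 2 after 2 doses (0.0384). Taken without the PBS tumors, Stat4 was 1.17 higher on the log2 scale after 2 doses of exoCDN2 than after 1 (adjusted p = 0.108).

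Some partners of the members were called as well. Jak3, the kinase of the common gamma chain of lymphocyte cytokine receptors, held 10.5 and 10.2 CPM in PBS, 16.8 and 27.7 CPM in CDN2 and 35.2 and 23.9 CPM in exoCDN2 tumors after 2 doses. It was called higher than PBS with CDN2 (log2 fold change 1.11, adjusted p = 0.00254) and with exoCDN2 (1.51, adjusted p = 0.00112). Jak1, the partner of Jak2 on the receptor, ranged from 80.7 to 163 CPM and was called in no comparison. Irf9, the third part of ISGF3, was called higher in all 5 comparisons of agonist with PBS, with log2 fold changes of 1.23 for CDN2 at 20 µg, 1.17 for CDN2 at 100 µg and 1.36 for exoCDN2 after 1 dose and of 2.49 and 2.26 after 2 doses.

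Interferon gamma target genes formed a list of 26, all of which were tested. Whether their changes came from interferon gamma or from type I interferon was not tested. With EVs 0 were called against PBS by edgeR, 2 of the 26 had a log2 fold change above 0, and the median was −1.43. After 1 dose of agonist, 10 were called higher than PBS and none lower for CDN2 at 20 µg, the median log2 fold change being 1.71 against 0.00 over all genes; 10 were higher and none lower for exoCDN2, with a median of 1.53. For CDN2 at 100 µg, 5 were higher and 3, namely Psmb8, Psmb9 and Ciita, were lower, with a median of 0.51. Cxcl10, Cxcl11 and Irf1 were among the 5, while Ifng itself had a log2 fold change of 0.44 there (adjusted p = 0.898 by edgeR). After 2 doses, 24 were called higher for CDN2 (median 5.73) and all 26 for exoCDN2 (median 5.35). Among all genes, 3.14% were called in either direction for CDN2 at 20 µg, 2.44% for 100 µg and 2.62% for exoCDN2 after 1 dose. After 2 doses the shares were 30.6% for CDN2 and 11.3% for exoCDN2. In PBS tumors, 18 of the 26 were called lower after 2 doses than after 1, against 1.10% of all genes called in either direction. The median of the 26 was −3.68, so the changes after 2 doses were measured from a lower control.

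Reads of the Gbp family may be split between near-identical copies, so values of single members are uncertain. Gbp3, a guanylate-binding GTPase, held 63.5 and 74.2 CPM in PBS tumors after 1 dose and 5.88 and 2.65 CPM after 2 doses, against 300.2 and 236 CPM after 2 doses of exoCDN2. Cxcl9, a chemokine for CXCR3-bearing T cells, held 42.3 and 53.4 CPM in PBS tumors after 1 dose, 3.53 and 2.12 CPM in PBS tumors after 2 doses, 439 and 219 CPM after 2 doses of CDN2 and 305 and 232 CPM after 2 doses of exoCDN2. Between exoCDN2 and CDN2 after 2 doses, 3 targets (Ciita, Cd74 and Gbp7) were called higher and 4 (Cxcl10, Cxcl11, Nos2 and Icam1) lower. Of all genes, 19.4% were called in either direction in that comparison. Ciita, the activator of MHC class II genes, was among the higher, at 31.1 and 8.49 CPM against 0.739 and 1.77 CPM (log2 fold change 3.90, adjusted p = 0.00712), as was Cd74, the class II invariant chain (2.31, adjusted p = 0.0194). Cxcl10 was among the lower, at 354 and 266 CPM against 1111 and 780 CPM (−1.61, adjusted p = 0.00826).

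Of 12 genes of the IL-12, IL-18 and IL-27 systems, which act upstream of Ifng and Stat4, 10 were tested. After 1 dose of any agonist 1 was called higher than PBS, namely Il27, an inducer of Th1 responses, with log2 fold changes of 5.68 for CDN2 at 20 µg, 5.21 for CDN2 at 100 µg and 5.30 for exoCDN2. After 2 doses 7 were called higher for CDN2 and 7 for exoCDN2, with medians of 3.21 and 3.25. The shares of all genes called in either direction were 30.6% and 11.3% in these comparisons, and 2.44% to 3.14% after 1 dose. Among called genes whose groups did not overlap, the smallest p-values after 2 doses were those of Il18bp, Il18 and Ebi3 for CDN2. For exoCDN2 they were those of Il18bp, Il18rap and Il18. Il18bp encodes the IL-18 binding protein. Il12rb2, the signalling chain of the IL-12 receptor, held 0.186 and 0.110 CPM in PBS, 1.08 and 1.05 CPM in CDN2 and 3.32 and 1.91 CPM in exoCDN2 tumors after 2 doses. Il12rb1, the shared chain that carries Tyk2, held 1.86 and 1.48 CPM in PBS, 7.73 and 32.8 CPM in CDN2 and 98.1 and 38.6 CPM in exoCDN2 tumors, and was higher in exoCDN2 than in CDN2 tumors (log2 fold change 1.74, adjusted p = 0.0475). Il27 and Ebi3, the chains of IL-27, and Il23a were called lower there. Thus 1 of the 10 tested genes was called higher and 3 lower, against 19.4% of all genes called in either direction.

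Of 17 cytokines and receptors that act through Stat3, 15 were tested. After 1 dose, 3 were called higher than PBS for CDN2 at 20 µg and 4 for exoCDN2. The shares of all genes called in either direction were 3.14% and 2.62%. After 2 doses, 12 were called higher for CDN2 and 7 for exoCDN2, against 30.6% and 11.3% of all genes. Il6 held 0.243 and 0.320 CPM in PBS, 19.2 and 54.4 CPM in CDN2 20 µg and 42.5 and 35.9 CPM in exoCDN2 tumors after 1 dose. After 2 doses it held 0.227 and 0.199 CPM in PBS, 38.6 and 5.34 CPM in CDN2 and 2.22 and 0.555 CPM in exoCDN2 tumors. None of the 15 was called higher and 6 were called lower in exoCDN2 than in CDN2 tumors after 2 doses, among them Il6, Osm (oncostatin M, at 7.73 and 2.47 CPM against 148 and 25.8 CPM) and Csf3 (log2 fold change −5.62, adjusted p = 0.00532). Of 14 Stat3 target genes, 11 were called higher and 1 lower for CDN2 and 8 higher for exoCDN2 against PBS after 2 doses. In exoCDN2 tumors 8 of the 14 were called lower than in CDN2 tumors, against 19.4% of all genes called in either direction in this comparison. Among the 8 were the transcription factor genes Fos, Junb and Cebpd. The 5 neutrophil genes summed to 183 and 831 CPM in CDN2 and 8.39 and 43.1 CPM in exoCDN2 tumors after 2 doses; their part in these values was not tested.

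Of 14 negative regulators of the pathway, 5 were called higher than PBS for CDN2 at 20 µg and 5 for exoCDN2 after 1 dose, against 3.14% and 2.62% of all genes called in either direction, and 5 and 4 after 2 doses, against 30.6% and 11.3%. The list's median log2 fold changes were 0.14 and 0.17 after 1 dose and 0.56 and 0.25 after 2 doses, while 0 were called lower than PBS by edgeR. Usp18, which blocks signalling at the type I interferon receptor, was among them each time, with log2 fold changes of 3.87 and 4.16 after 1 dose and 6.57 and 5.62 after 2 doses. Socs1, which inhibits JAK kinases at the interferon gamma receptor, held 5.92 and 8.11 CPM in PBS, 49.6 and 79.1 CPM in CDN2 20 µg and 48.2 and 62.1 CPM in exoCDN2 tumors after 1 dose. Following 2 doses it held 0.990 and 1.41 CPM in PBS, 41.4 and 16.3 CPM in CDN2 and 26.5 and 14.1 CPM in exoCDN2 tumors. Socs3, which blocks gp130 signalling to Stat3, was lower in exoCDN2 than in CDN2 tumors after 2 doses (log2 fold change −1.29, adjusted p = 0.0305). Ptpn6, a phosphatase of blood cells, was the 1 of the 14 regulators called higher there. A further 3, among them Socs3 and Pias4, were called lower, against 19.4% of all genes called in either direction.

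The genes whose log2 CPM ran closest to each member over the 16 tumors were also recorded, as a description. Among the closest to Ifng were Gm5970 and Irgm2, with Pearson correlations of 0.95 and 0.94, and the closest to Stat2 were Dtx3l, Ddx58 and Trim25, at 0.99, 0.99 and 0.98. Stat4 ran closest to P2ry10, Ikzf1 and Ccdc36, at 0.91, 0.89 and 0.89, and Jak2 to Parp8, Ikzf2 and Resf1, at 0.97, 0.96 and 0.96. Stat3 ran closest to Nod1, Aldh1b1 and Carmil1, at 0.93, 0.93 and 0.92. For Ifngr1 the closest were Gm37233, Rhof and Lrrc75b (0.92, 0.88 and 0.86), for Ifngr2 Arhgef40, Zfp324 and Dusp11 (0.83, 0.82 and 0.82) and for Tyk2 Ppp1r13b, Osbpl7 and Git1 (0.97, 0.96 and 0.95). Among the members, Ifng ran with Stat2 at 0.86, Stat3 at 0.83 and Jak2 at 0.83, with Stat4 at 0.63, and with Ifngr1, Ifngr2 and Tyk2 at −0.04, −0.13 and −0.03. The tumors fall into 8 treatment groups, and the correlations mix differences between groups with those within them.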

How the data were processed

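RNA of whole B16F10 tumors was sequenced. The authors aligned reads to GRCm38 with OSA in OmicSoft ArraySuite and deposited expected counts per gene, estimated with RSEM on Ensembl gene models and not normalized. Between 8.75% and 12.7% of values in a tumor were not whole, and counts were rounded before testing. Totals were 21608895 to 65983630; the number of tumors, not this depth, limits the precision except for Ifng and Stat4, and the floor of 3 counts covers counting error only.

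Groups were read from the labels. The 16 labelled tumors were fitted together with edgeR 4.0.16 (R 4.3.3; quasi-likelihood test, TMM factors, filterByExpr with minimum counts of 10 and 15 in total), leaving 8 residual degrees of freedom. All adjusted p-values of the text are edgeR's over 16927 genes unless DESeq2 1.42.0 is named. An exact permutation test of 2 against 2 tumors cannot give a p below 0.333 and was not used. Intervals are 95% intervals of the log2 fold change. The fit was tested on simulated data. Levels are CPM with TMM factors, and likeness was computed on log2 CPM with a prior count of 2. Upstream sequences came from RefSeq (GRCm38.p6), where all 8 genes matched, with 9 windows.

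From each gene list, up to 3 higher and 3 lower called genes with the smallest p-values and no overlap between groups could be named in the comparisons of exoCDN2 and CDN2 at 20 µg with PBS and with each other, besides the members, other JAKs and STATs and the 3 genes closest to each member. Nos2, the T cell genes, the 100 µg values of list genes and some levels were added after their values were seen. Il12rb2 was named outside this rule. The members and lists were chosen with earlier results of these data known. Alternatives were DESeq2, RLE factors, no filter, fits of the compared groups alone, the replicate number as a block, no limit on the ratio, all PBS tumors joined, direct dose comparisons and leaving out each tumor. The 2 tumors without a stated amount were not tested. Results that need 1 further gene are not reported here.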

Additional observations from a re-analysis of the deposited data

Results flagged for a closer look

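For exoCDN2, the effect against PBS differed between 2 doses and 1 dose in 3 members by edgeR's test of that difference. It was −0.68 for Ifngr2 (adjusted p = 0.0449), 0.98 for Stat2 (adjusted p = 0.0480) and 2.62 for Stat4 (adjusted p = 0.0321) on the log2 scale. Without the PBS tumors, the direct differences between 2 doses and 1 dose were −0.44 for Ifngr2, −0.40 for Stat2 and 1.17 for Stat4, so the sign for Stat2 turned; Stat2 was itself lower in PBS tumors after 2 doses than after 1.

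The 2 tumors given 2 doses of CL656 of an unstated amount were in no comparison and lay above both PBS tumors after 2 doses in 4 members. Ifng held 0.843 and 1.63 CPM there, against 0.0412 and 0 CPM in PBS tumors after 2 doses and 0.949 and 1.56 CPM after 1 dose. Stat2 held 29.7 and 20.6 CPM, against 11.7 and 11.6 CPM after 2 doses and 31.2 and 29.5 CPM after 1 dose of PBS. Stat3 held 191 and 162 CPM, against 112 and 142 CPM after 2 doses and 218 and 196 CPM after 1 dose of PBS. Stat4 held 0.692 and 2.17 CPM, against 0.474 and 0.309 CPM after 2 doses and 1.02 and 1.14 CPM after 1 dose of PBS. For Stat2, both tumors lay below all 4 tumors given 1 or 2 doses of CDN2 at 20 µg.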

How the results depend on the processing

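The 6 calls of Stat2 against PBS or EVs and the call of Stat4 for 2 doses of exoCDN2 against PBS passed under all alternatives run for them. The number of members called changed by at least 1.5 times with all tumors kept as follows, and the ranges without single tumors come after. With DESeq2 it was 2 for PBS after 2 doses against 1 and 2 for the difference between the exoCDN2 effects. With the replicate number as a block it was 2 and 2 in these comparisons; the deviations of same-numbered tumors correlated at 0.0022 on average (−0.18 to 0.32 over 28 pairs of groups), so the tumors share only a number. Without a filter it was 1 for EVs, 2 for CDN2 at 20 µg and 3 for exoCDN2 after 1 dose, 2 for 100 against 20 µg, 2 for exoCDN2 against CDN2 after 2 doses, 3 for PBS, 1 for the difference between the CDN2 effects and 2 for that of exoCDN2. With the compared groups fitted alone it was 2 for CDN2 at 100 µg and 3 for exoCDN2 after 1 dose, 0 for exoCDN2 against CDN2 after 2 doses, 2 for PBS and 2 for the difference between the exoCDN2 effects. Without a limit on the ratio it was 6 for CDN2 after 2 doses, 2 for exoCDN2 against CDN2 after 2 doses and 3 for the difference between the exoCDN2 effects, and 0 for the latter as a direct comparison. With all PBS tumors joined it was 2 for CDN2 at 20 µg and 2 for 100 µg after 1 dose, 1 for CDN2 and 3 for exoCDN2 after 2 doses. When single tumors were left out it was 1 to 2 for CDN2 at 20 µg after 1 dose, 1 to 1 for exoCDN2 after 1 dose, 1 to 2 for exoCDN2 against EVs, 3 to 3 for CDN2 and 4 to 5 for exoCDN2 after 2 doses, 0 to 1 for exoCDN2 against CDN2 after 2 doses, 0 to 1 for PBS, and 0 to 1 and 0 to 3 for the differences between the CDN2 and the exoCDN2 effects. The causes were not tested.

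Log2 fold changes that turned sign were in no case called with all tumors. They were −0.041 (DESeq2) and −0.041 (RLE factors) for the difference between the exoCDN2 effects on Jak2, −0.022 for Ifngr1 after 2 doses of CDN2 without a filter, and 0.18 for Ifng between exoCDN2 and CDN2 after 1 dose with the replicate block. With all PBS tumors joined they were −0.068 for Ifngr2, 0.098 for Stat2 and 0.25 for Stat3 with EVs, −0.077 for Ifngr2 with CDN2 at 20 µg, −0.036 for Ifngr1 and −0.0090 for Ifngr2 with CDN2 at 100 µg and −0.0030 for Ifngr1 with exoCDN2, all after 1 dose. Direct dose differences were −2.19 for Ifng, −0.57 for Stat2, −0.14 for Stat3 and −0.38 for Stat4 with CDN2, and −0.60 for Ifng, −0.35 for Jak2 and −0.40 for Stat2 with exoCDN2. Without single tumors, values ranged over 0 for CDN2 at 100 µg against PBS in Ifng (−1.03 to 1.15), Ifngr1 (−0.059 to 0.097) and Stat3 (−0.054 to 0.098). The same held for 100 against 20 µg in Ifng (−3.46 to 0.020), Ifngr2 (−0.070 to 0.21) and Jak2 (−0.21 to 0.019), and for CDN2 at 20 µg in Ifngr2 after 1 dose (−0.079 to 0.19) and Ifngr1 after 2 doses (−0.27 to 0.22). It held for exoCDN2 against CDN2 after 1 dose in Ifng (−0.89 to 1.92), Stat3 (−0.076 to 0.16) and Stat4 (−0.084 to 0.48), against EVs in Stat4 (−0.63 to 0.64) and against PBS in Ifngr1 (−0.023 to 0.13). It held for EVs in Ifngr2 (−0.026 to 0.14), Tyk2 (−0.090 to 0.0078), Stat3 (−0.15 to 0.022) and Stat4 (−0.14 to 1.13), for PBS after 2 doses against 1 in Jak2 (−0.98 to 0.068) and Tyk2 (−0.087 to 0.19), and for the differences between the CDN2 effects (−0.57 to 0.48) and exoCDN2 effects (−0.42 to 0.63) on Jak2.

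Over all genes, calls for exoCDN2 against CDN2 after 2 doses fell from 3279 to 30 with these groups fitted alone, and those for CDN2 after 2 doses from 5177 to 3060. DESeq2 called 35 genes for EVs, 667 for CDN2 at 100 µg (413 by edgeR), 711 for exoCDN2 after 1 dose (444) and 388 for PBS (186). Without a filter 227 genes were called for EVs and 707 to 1178 in the other comparisons after 1 dose.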
